A study of Homo sapiens with 2 samples.

Results

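The BCL2 family of apoptosis regulators was described in RNA-Seq data of HEK293T cells. The members were 10 genes given by symbol (BCL2, BCL2L1, MCL1, BCL2L2, BCL2A1, BAK1, BID, BCL2L11, BAD and PMAIP1), and each was matched by its Ensembl identifier to 1 of the 57736 genes of the tables. The genes were given by name and not by a threshold on their values, although earlier results of these data were known when the list was made. The study examined which genes lie near the contacts of rDNA clusters, and these libraries give the expression levels in its untreated cells. Both samples were poly(A)+ RNA of wild type HEK293T cells grown at 37 °C to 80% confluency, and they formed 1 group of 2 replicates. No second condition was measured, so levels were compared between genes and between replicates.

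HEK293T is a line from human embryonic kidney that was transformed with adenovirus DNA and later given the SV40 large T antigen. The adenoviral E1B region encodes a viral relative of BCL2, and large T binds p53. Reads of these viral genes were not analysed here, so the values cover the human part of the family only. The labels do not say whether the replicates came from separate cultures. The p-values set the difference between these libraries against counting error alone and estimate no spread between cultures. Of 10 marker genes of kidney tubule and glomerulus 1 was detected, and of 5 genes listed for embryonic kidney and the background of the line all were, from PAX2 with a mean TPM of 3.41 to UCHL1 with 253. The totals were 10593491 and 10104118 estimated counts. A gene was called detected when each replicate gave it a TPM of 1 or more, which 15997 genes (27.7%) did. Of protein-coding genes 63.7% were detected. TPM, the relative abundance of a gene's transcripts, scales reads by transcript length, so it allows levels of different genes to be compared.

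Proteins of this family decide whether the outer mitochondrial membrane stays closed. The effectors BAK1 and BAX form pores in it, which release cytochrome c and start the caspase cascade. The pro-survival proteins hold the effectors and the BH3-only proteins through a groove on their surface. The BH3-only proteins carry a short helix, the BH3 segment, that fills this groove or acts on the effectors directly. The balance is known to differ between tissues, and cells often depend on 1 or a few pro-survival members.

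The coding sequences were read first, since they show what the members share and where reads cannot be told apart. All were taken from the GENCODE transcripts on GRCh37 and are given 5′ to 3′ on the coding strand, in windows of 30 bases. The BH1 segment lines the groove and holds the residues asparagine, tryptophan, glycine and arginine in a row, whose codons are in capitals. This run of 4 residues occurred in 20 of 19765 canonical proteins (0.101%). It was present in all 5 listed pro-survival proteins and in BAK1, and in none of the 4 BH3-only proteins. Among 11 other family proteins it was found in BAX.

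MCL1 (chr1:150550858-150550887, minus strand, exon 2 of 3): ggcgtaacaAACTGGGGCAGGattgtgact
BCL2 (chr18:60985453-60985482, minus strand, exon 2 of 3): gacggggtgAACTGGGGGAGGattgtggcc
BCL2L1 (chr20:30309596-30309625, minus strand, exon 2 of 3): gatggggtaAACTGGGGTCGCattgtggcc
BCL2L2 (chr14:23777241-23777270, plus strand, exon 3 of 4): gggggccccAACTGGGGCCGCcttgtagcc
BCL2A1 (chr15:80263189-80263218, minus strand, exon 1 of 2): ggcatcattAACTGGGGAAGAattgtaacc
BAK1 (chr6:33541952-33541981, minus strand, exon 5 of 6): agtggcatcAATTGGGGCCGTgtggtggct
BAK1P1, a processed pseudogene (chr20:31278228-31278257, minus strand): agtggcatcAATTGGGGCCGTgtggtggct

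The window of the pseudogene BAK1P1 had 0 mismatches to that of BAK1. The reads, at 50 nt, are longer than this window.

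The BH3 segment was searched as a leucine, any 3 residues, a glycine or serine, and an aspartate, and the codons from leucine to aspartate are in capitals. This pattern is a loose one and occurred in 26.2% of the 19765 proteins, so a match is a description only. It was found in 8 of the 10 members, and for BID, which had 2 matches, the match in the known BH3 segment is shown. In BCL2L2 and BCL2A1 these letters were not found.

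BCL2L11 (chr2:111907674-111907703, plus strand, exon 3 of 4): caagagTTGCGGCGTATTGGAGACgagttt
BID (chr22:18222187-18222216, minus strand, exon 4 of 6): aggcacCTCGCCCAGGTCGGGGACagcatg
BAD (chr11:64039100-64039129, minus strand, exon 3 of 4): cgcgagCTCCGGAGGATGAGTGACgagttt
PMAIP1 (chr18:57569899-57569928, plus strand, exon 2 of 2): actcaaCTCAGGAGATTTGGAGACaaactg
BAK1 (chr6:33543170-33543199, minus strand, exon 4 of 6): cggcagCTCGCCATCATCGGGGACgacatc
BAK1P1 (chr20:31278363-31278392, minus strand): cggcagCTCGCCATCATTGGGGACgacatc
MCL1 (chr1:150551347-150551376, minus strand, exon 1 of 3): gagaccTTACGACGGGTTGGGGATggcgtg
BCL2 (chr18:60985588-60985617, minus strand, exon 2 of 3): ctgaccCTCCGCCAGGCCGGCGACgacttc
BCL2L1 (chr20:30309731-30309760, minus strand, exon 2 of 3): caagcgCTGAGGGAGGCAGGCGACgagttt

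In this window BAK1P1 differed from BAK1 by the single substitution C18T, counted from 1 at the 5′ end of the window. BAD, BCL2L11 and BCL2L1 end in the same bases after the aspartate codon, while PMAIP1 and MCL1 differ there. The canonical proteins ranged from 54 residues in PMAIP1 to 350 in MCL1.

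The level of each member was then examined. MCL1 had the highest level of the 10 members and BCL2A1 had no reads, and 9 of the 10 were detected. Of all genes 27.7% were detected, and of 19391 protein-coding genes 63.7%. The 4 BH3-only genes and BAK1 lay together between 24.8 and 41.8 TPM in the single replicates. BCL2L1 and BCL2L2 lay below them in both replicates, and BCL2 was lower again. The 10 genes together held 290.2 TPM in replicate 1 and 275.9 in replicate 2.

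**Figure D1:**
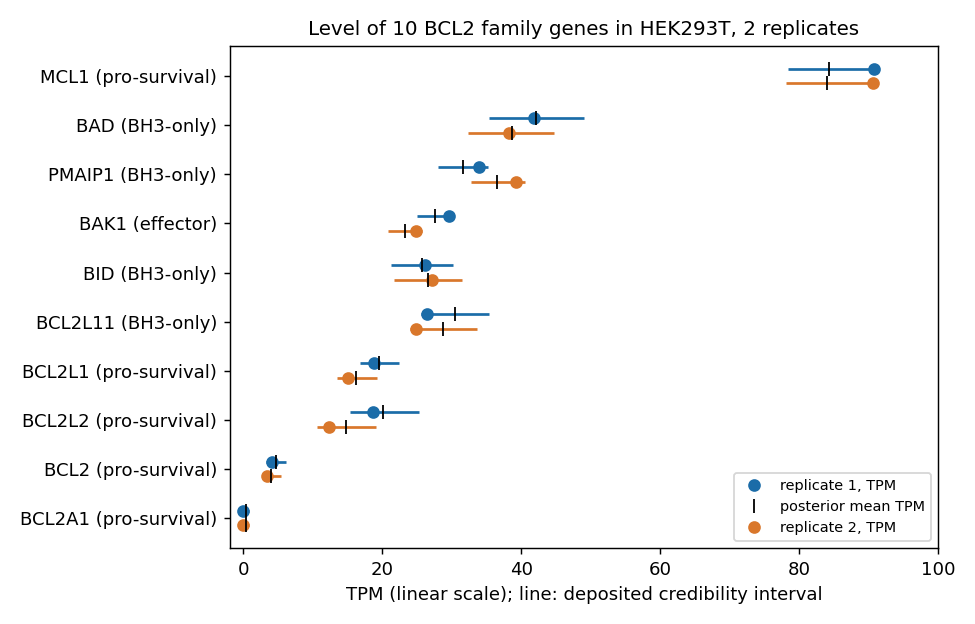
TPM of the 10 members (x axis, linear) in replicate 1 and replicate 2, with the deposited credibility interval as a line and the posterior mean as a tick. MCL1 stands apart at 90.8 and 90.7 TPM, 5 pro-apoptotic genes lie between 24.8 and 41.8, and BCL2A1 is at 0.

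Among the pro-survival genes, MCL1 encodes a short-lived protein that binds BAK1 and several BH3-only proteins. It lies on chromosome 1 from 150533371 to 150552214 (GRCh37) and had a TPM of 90.8 in replicate 1 and 90.7 in replicate 2. The replicates differed by less than 0.1 TPM, and 92.3% of protein-coding genes had a lower mean. The counts behind these values were 2196 and 2139, and the 95% Poisson interval of the first was 2105 to 2290. The deposited interval of the TPM ended at 90.3 and 90.0, just below the TPM itself in both replicates. Such a TPM above its own interval occurred in 5.91% and 5.83% of the detected genes. The posterior mean, 84.3 and 84.1 TPM for MCL1, is a second estimate by RSEM. It also gives some TPM to genes with an estimated count of 0, and those genes held 3.62% and 3.73% of it.

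BCL2L1 encodes BCL-XL and lies on chromosome 20 from 30252255 to 30311792. Its TPM was 18.8 in replicate 1 and 15.1 in replicate 2, from 310 and 229 counts, which are whole numbers with no shared reads. BCL2L2 encodes BCL-W and lies on chromosome 14 from 23767999 to 23780960. Its TPM was 18.7 and 12.3, from 336 and 227 estimated counts. The values of BCL2L1 and BCL2L2 overlapped between the replicates, so their order is not resolved. BCL2, the founding member of the family, spans chromosome 18 from 60790579 to 60987361, and its TPM was 4.10 and 3.38. This rested on 109 and 97 counts, with 95% Poisson intervals of 89.5 to 131 and 78.7 to 118. A total of 44.5% of protein-coding genes had a lower mean TPM than BCL2.

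The ratio of MCL1 to BCL2 in TPM was 22.1 in replicate 1 and 26.8 in replicate 2. That of MCL1 to BCL2L1 was 4.82 and 6.03. The share of MCL1 in the pro-survival TPM was 71.6% ± 4.31 (SD, n = 2). BCL2A1, known mainly from blood cells, lies on chromosome 15 from 80253234 to 80263538 and had an estimated count of 0 in both replicates. With 3 counts taken as the limit for a count of 0, its TPM could reach 0.461 in replicate 1 and 0.479 in replicate 2. The upper bounds of the deposited intervals were wider, 0.776 and 0.785 TPM. The limits from 3 counts, like the Poisson intervals, reflect counting error alone. Neither they nor the deposited intervals allow for PCR copies, which are not independent molecules. The blood cell markers PTPRC, CD3E, CD79A, LYZ, HBB, SPI1 and CD14 were not detected, and CD3E and HBB had no counts.

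Among the effectors, BAK1 spans chromosome 6 from 33540324 to 33548070, and its TPM was 29.6 in replicate 1 and 24.9 in replicate 2. BAX, the other main effector and not among the 10 members, had a TPM of 76.3 and 81.5. The replicates of BAX and BAK1 did not overlap, and BAX over BAK1 was 2.58 in replicate 1 and 3.27 in replicate 2. Without the correction for length, in estimated counts, this ratio was 1.28 and 1.43.

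The BH3-only genes lay close to each other. BAD, whose protein is inactivated by phosphorylation in the presence of growth factors, spans chromosome 11 from 64037302 to 64052176, and its TPM was 41.8 in replicate 1 and 38.3 in replicate 2. PMAIP1 encodes NOXA, a partner of MCL1 and a target of p53, and lies on chromosome 18 from 57567228 to 57571537. Its TPM was 33.9 and 39.3, so BAD was higher in replicate 1 and PMAIP1 in replicate 2. BID, which is cleaved by caspase 8 and so joins the death receptors to mitochondria, spans chromosome 22 from 18216904 to 18257536, and its TPM was 26.2 and 27.1. BCL2L11 encodes BIM, which binds all the main pro-survival proteins. It spans chromosome 2 from 111876955 to 111926021, and its TPM was 26.4 and 24.8. BAK1, BID and BCL2L11 overlapped in their replicates and had means of 27.2 ± 3.31, 26.7 ± 0.665 and 25.6 ± 1.11 TPM (SD, n = 2).

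In the order of mean TPM, neighbours were called apart when their replicates did not overlap and their deposited intervals did not overlap in either replicate. By this rule 4 of the 9 neighbouring pairs were apart. These were MCL1 above BAD, BCL2L11 above BCL2L1, BCL2L2 above BCL2, and BCL2 above BCL2A1. The remaining pairs, from BAD down to BCL2L11 and between BCL2L1 and BCL2L2, did not differ beyond their spread under this rule. PMAIP1 and BAK1 did not overlap in TPM, and their intervals overlapped in replicate 1 but not in replicate 2. By estimated counts MCL1, BCL2 and BCL2A1 kept places 1, 9 and 10, while other members changed place. BAD was in place 8 of 10 by counts in both replicates against places 2 and 3 by TPM, and its mean transcript length was 812 nt in replicate 1. BCL2L11 was in place 2 by counts in both replicates, with a mean transcript length of 2795 nt in replicate 1.

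The listed pro-survival and pro-apoptotic members were summed to set these 2 sides of the list beside each other. The 5 pro-survival genes held 132.3 TPM in replicate 1 and 121.4 in replicate 2. The 5 pro-apoptotic genes (BAK1 and the BH3-only genes) held 157.9 and 154.4. The ratio of the first to the second was 0.838 and 0.786, with a mean of 0.812 ± 0.0368 (SD, n = 2). Without MCL1 it was 0.263 and 0.199. In estimated counts, which leave length uncorrected, the mean ratio was 1.57. In TPM without the 4 members whose counts were not whole numbers it was 1.77. The side with the larger sum thus changed under both settings. The members left out were BAK1, BAD and BCL2L11 on the pro-apoptotic side and BCL2L2 on the pro-survival side. MCL1 stayed in, so the value of 1.77 compares smaller and unequal sets of genes. These sums are of RNA and not of protein, and they carry no test. They cover the listed members only, so the ratio is not the balance of the whole family. The effector BAX, with a TPM of 76.3 in replicate 1 and 81.5 in replicate 2, was left out of the pro-apoptotic sum. Other family genes outside the list were in neither sum, and a ratio that includes them was not computed.

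The wider family was read from a list of 11 further genes, of which 6 were detected. BCL2L12 was highest with a mean TPM of 91.7 ± 1.56 (SD, n = 2), and its level did not lie apart from that of MCL1. BCL2L13, whose protein sits on mitochondria, had 51.4 ± 4.22 TPM. The BH3-only genes of this list lay far below the listed ones. BBC3, which encodes PUMA, had a TPM of 5.60 in replicate 1 and 5.01 in replicate 2. BMF had 5.75 and 3.29, and HRK had 3.11 and 3.34. BIK stayed under 1 TPM with 0.89 and 0.77, from 6 and 5 counts. BOK, BCL2L14 and BCL2L15 also failed the threshold, and BCL2L10 had no counts. Of all 21 family genes 15 were detected, beside 63.7% of all protein-coding genes.

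**Figure D2:**
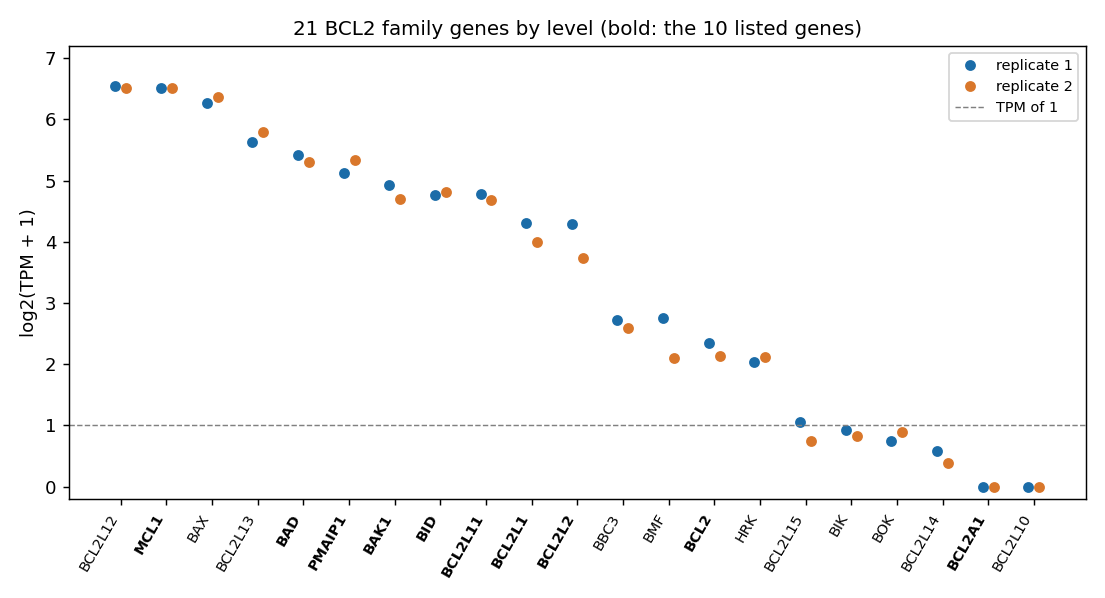
log2(TPM + 1) of 21 BCL2 family genes, ordered by mean TPM, with a point for each replicate and the members in bold. BCL2L12, MCL1 and BAX lead, 15 genes lie above the dashed line at a TPM of 1 in both replicates, and BCL2A1 and BCL2L10 are at 0.

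The replicates were compared gene by gene over the 17920 genes with 10 or more summed counts, and each rounded count was set against the scaled library sizes by a binomial test (exact, two-sided). Of the 9 members tested, BCL2L2 alone passed an adjusted p of 0.05, against 3.88% of all genes tested and 3.21% of genes in the same range of counts. Genes called higher in replicate 1 made up 1.74% of those tested, and genes called higher in replicate 2 made up 2.14%. Its count was higher in replicate 1, by 1.40-fold after scaling, with an adjusted p of 0.00468 (Benjamini-Hochberg, exact binomial test). This call was lost, with an adjusted p of 0.0586 in the same exact test, when BCL2L2 was summed with BCL2L2-PABPN1, the gene that holds most of its shared sequence, a setting chosen after the data were seen. An unadjusted p under 0.05 was found for 4 of the 9 members and for 2377 of the 17920 genes (13.3%). The log2 ratio of replicate 2 to replicate 1 was -0.49, with a 95% interval of -0.74 to -0.24. BCL2L1 had a log2 ratio of -0.36 (-0.61 to -0.11) and PMAIP1 one of 0.29 (0.07 to 0.51), and their adjusted p was 0.0871 and 0.136 in the exact binomial test. BAK1 had -0.22 (-0.43 to -0.02), with an adjusted p of 0.269 in the exact test. MCL1, BAD, BID, BCL2L11 and BCL2 had intervals that included 0. The median of the 9 log2 ratios was -0.01, and that of all 17920 genes was 0.00156. The median absolute log2 ratio was 0.120 for the 9 members and 0.131 for all genes tested. Among 9465 genes with summed counts between those of BCL2 and MCL1 it was 0.0855. The test and its intervals hold counting error alone. They compare the libraries and say nothing of conditions.

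**Figure D3:**
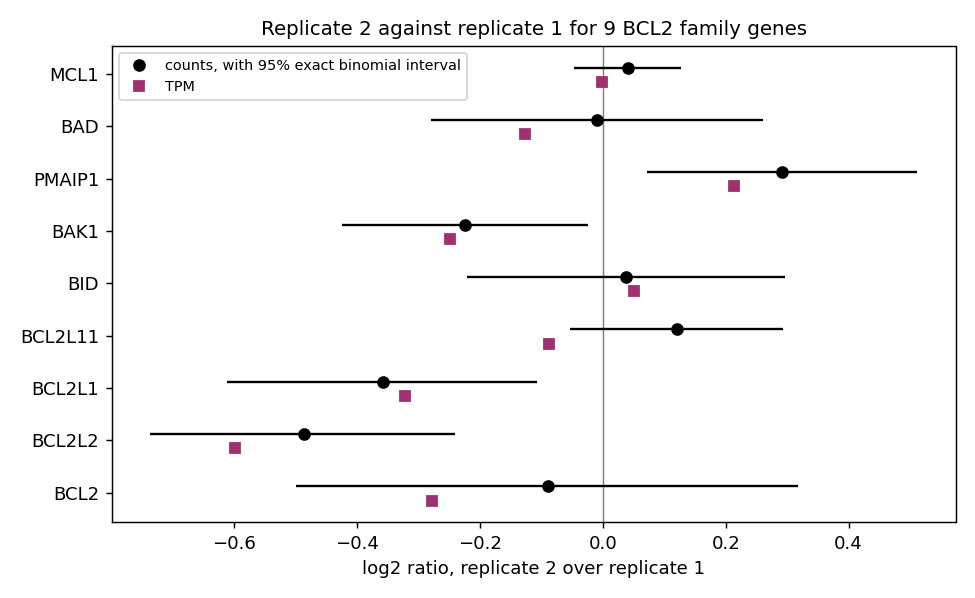
log2 ratio of replicate 2 to replicate 1 for 9 members, from counts (black, with the 95% exact binomial interval) and from TPM (squares). BCL2L2 is lowest at -0.49 in counts and -0.60 in TPM, and for BCL2L11 the signs of the ratios differ.

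The same reads gave other ratios in TPM, because the mean transcript length that RSEM assigns to a gene differed between the replicates. BCL2L11 had a log2 ratio of 0.12 in counts but of -0.09 in TPM, while its mean transcript length was 2795 nt in replicate 1 and 3173 nt in replicate 2. BCL2 had -0.09 in counts and -0.28 in TPM, with lengths of 3613 nt and 4043 nt. For BAK1, whose length was 2136 nt in both replicates, the ratios were -0.22 and -0.25. BCL2L11 has 17 transcripts in the tables and BCL2 has 5, and the tables used here give genes and not single transcripts.

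How far the single counts can be trusted was examined from the reads they share. The counts of 6 members were whole numbers in both replicates, and those of BCL2L2, BAK1, BAD and BCL2L11 were not. The posterior SD, the uncertainty that RSEM gives to the sharing of reads, was largest for BCL2L2 with 8.20 counts in replicate 1 and 7.80 in replicate 2, which is 2.44% and 3.44% of its counts. It was 4.24 and 5.61 counts for BAK1 and 2.16 and 2.03 for BAD. In BCL2L11 it was 0.62 and 0. In BCL2A1 it was 0.51 and 0.46 although the estimated count was 0, so its 0 is also a result of how reads were shared out. The shared words of BCL2A1 were with ST20, which had 52.4 and 50.9 counts. The sharing was also read from the sequences, as the share of all 50-nt words of a gene's transcripts that occur in transcripts of another gene on either strand. This share was 35.8% for BCL2L2, 16.2% for BAD, 12.5% for BAK1, 5.76% for BCL2A1 and 0.970% for BID. MCL1, BCL2, BCL2L1, BCL2L11 and PMAIP1 had no shared word. These shares cover the transcripts whose identifiers were found in GENCODE, which for BAK1 were 2 of 3 and for BCL2L11 14 of 17.

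**Figure D4:**
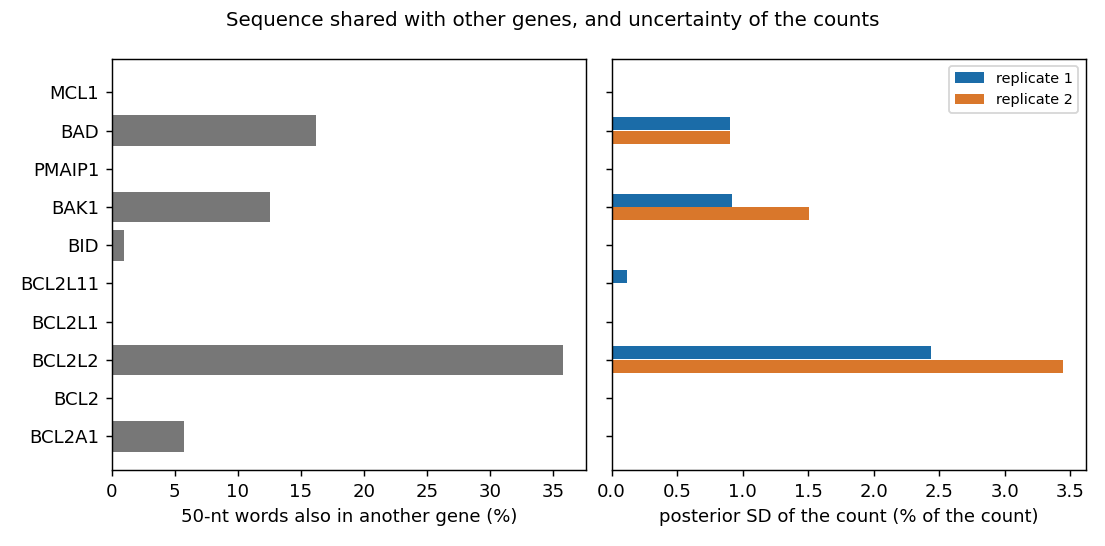
Left, the percent of 50-nt words of each member that also occur in another gene. Right, the posterior SD of the count as a percent of the count in each replicate. For BCL2A1, with a count of 0, this percent is not defined, and it is drawn at 0. BCL2L2 is highest in both, with 35.8% of words and 2.44% and 3.44% of the count. BAD is next by words, and BAK1 is next by posterior SD.

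BCL2L2 shared words with 3 other genes. It shared 206 exon bases with PPP1R3E on the opposite strand, which had 222 and 197 counts. The main partner of BCL2L2 was BCL2L2-PABPN1, a gene model that joins BCL2L2 to its neighbour PABPN1. It shares 813 exon bases with BCL2L2 on the same strand. Its estimated counts were 83.3 and 90.7, and the posterior SDs of these were 18.6 and 21.9. Summed over both genes, replicate 1 held 419.36 counts and replicate 2 held 317.23, a ratio of 1.25 after scaling. These sums were not whole, so this pair did not hold all the reads that were shared out. With pairs summed in this way no member passed the exact binomial test. PABPN1 itself had 2914 and 2371 counts and differed in the same direction, with a log2 ratio of -0.22. The part of read assignment in the difference was not tested further.

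BAK1 shared words with BAK1P1, a processed pseudogene on chromosome 20 from 31277982 to 31278617. It received 15.5 and 29.7 counts, and its posterior SDs equalled those of BAK1. The counts of the pair added up to whole numbers, 476 and 403, and the share given to BAK1P1 was 3.26% and 7.36%. BAD shared 404 exon bases with GPR137 on the opposite strand, and their posterior SDs were equal in each replicate. Their counts added up to 637 and 543. The sources used here do not state whether strand was used in counting. The counts of BAD (238.32 and 223.75) and GPR137 (398.68 and 319.25) were not whole, while their sums were. Reads were thus shared out between these genes although they lie on opposite strands, as in counting without strand. Without strand, reads in the shared part of such a pair cannot be told apart.

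A further deposited table holds values of the authors for both replicates pooled. For all 10 members its count lay within 1% or 1 count of the summed replicates. For BCL2L2 it held 566 counts against a sum of 563, the largest gap among the 10.

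The rest of the pathway was read from lists of genes, which were chosen with earlier results of these data known. The counts of detected genes in these lists stand beside a share of 63.7% among all protein-coding genes. The 4 genes of outer membrane partners were all detected, led by VDAC1 with 296 ± 6.78 TPM (SD, n = 2). All 11 genes of the apoptosome and caspase list were detected. CYCS, which encodes cytochrome c, was highest with 314 ± 10.4 TPM, and CASP9, the initiator caspase of the apoptosome, was lowest with 9.32 ± 1.18. Of 9 genes for inhibitors of apoptosis and their antagonists 6 were detected, led by BIRC5 (survivin) with 143 ± 3.39 TPM, and BIRC7 and BIRC8 had no counts. XIAP, the main caspase inhibitor, had a TPM of 38.2 in replicate 1 and 20.1 in replicate 2 from 919 and 876 counts, with mean transcript lengths of 3270 nt and 6129 nt.

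Of the 12 genes of the death receptor arm, which reaches mitochondria through BID, 9 were detected. CASP8, the caspase that cleaves BID, had 11.9 ± 0.573 TPM (SD, n = 2), below BID in both replicates. TNFRSF10A and FASLG had no counts, while TNFRSF10B had 22.2 ± 1.16 TPM. All 10 genes of turnover, kinases and binding partners were detected. HUWE1 and USP9X, whose products add and remove ubiquitin on MCL1, had 172 ± 0.255 and 99.7 ± 0.276 TPM. Their deposited intervals were far wider than these SDs, in replicate 1 from 156 to 177 for HUWE1 and from 87.3 to 103 for USP9X. YWHAZ, a 14-3-3 protein that binds phosphorylated BAD, was highest with 528 ± 4.50 TPM. DYNLL1, a dynein light chain that binds BCL2L11, had 446 ± 0.297 TPM, above BCL2L11 in both replicates. Its deposited interval in replicate 1 ran from 394 to 433, below the TPM itself.

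**Figure D5:**
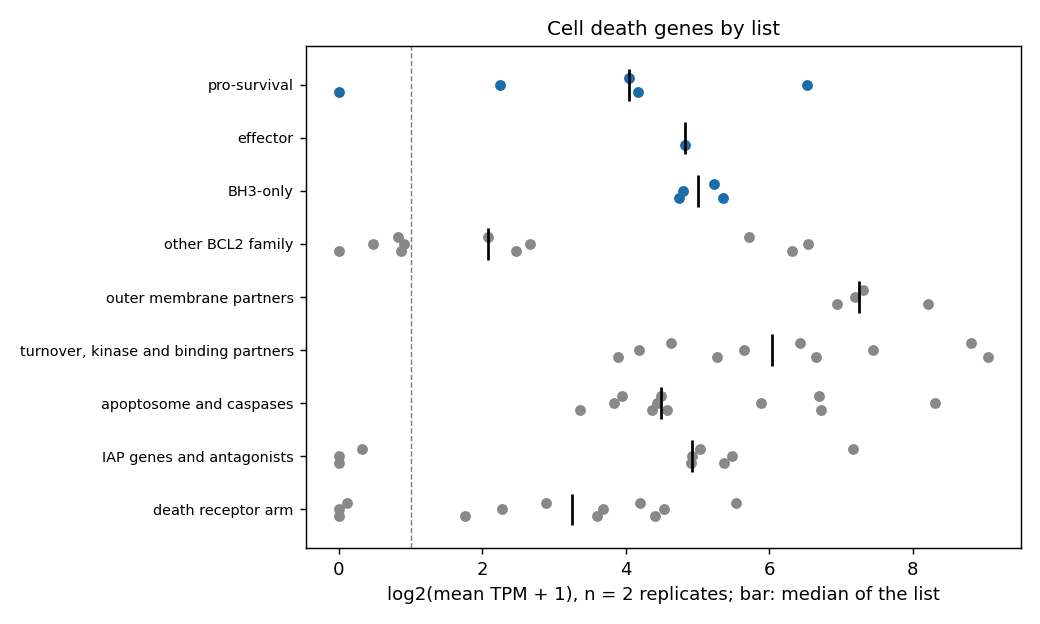
log2(mean TPM + 1) of each gene in 9 lists of cell death genes, with a bar at the median of the list and a dashed line at a TPM of 1. The 4 membrane partners lie highest as a list, and the pro-survival members (top row) span from BCL2A1 at 0 to MCL1.

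The libraries differed for 1 of 11 genes tested in the caspase list (CASP2) and 1 of 6 among the inhibitors (BIRC6). The same held for 1 of 9 in the death receptor arm (FADD) and 2 of 10 among the partners (USP9X and YWHAZ). Of all 17920 genes tested 3.88% were called. The log2 ratios of replicate 2 to replicate 1 were -0.17 for CASP2, 0.13 for BIRC6 and -0.57 for FADD. For USP9X and YWHAZ they were 0.08 each. FADD, the adaptor of the death receptors, had 324 and 206 counts, and their posterior SDs were 14.8 and 14.4. No gene differed in the membrane partners or among the other BCL2 family genes.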

How the data were processed

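The 2 libraries were made from poly(A)+ RNA of HEK293T cells without treatment and sequenced with 50-nt reads. The submitters' processing notes name Trimmomatic 0.36, STAR 2.6.1c, RSEM 1.3.1 and GRCh37, and the study's methods name Ensembl genes and featureCounts, whereas the columns are those of RSEM. Estimated counts were deposited by the authors as reads per gene, with ambiguous reads shared out. TPM and FPKM values were deposited by the authors and correct for transcript length. Posterior SDs and interval bounds are scores deposited by the authors, and the level of the interval is not stated in the files.

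Members and lists were chosen with earlier results of these data known. All 10 members were named, with some of the genes that share their sequence. From the lists, some of the highest, lowest, undetected or role-defining genes were named. Symbols and coordinates came from GENCODE release 44 on GRCh37, and 96.1% of identifiers were matched. Estimated counts were rounded, and library sizes were scaled by TMM (edgeR 4.0.16, R 4.3.3). Exact binomial tests used scipy 1.17.1 on all genes with 10 or more summed counts, with Benjamini-Hochberg adjustment and 0.5 counts added for log2 ratios. A count was whole within 0.005. The test was checked on simulated Poisson counts, which hold no spread beyond counting, so the check does not cover such spread. Coding windows were read with biopython 1.88. Alternatives covered detection thresholds, scaling, filters, units, lengths and leaving out each replicate. A gene of the blood cell marker list is not reported here.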

Additional observations from a re-analysis of the deposited data

How the results depend on the processing

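No paired analysis was possible because no second group was measured. Of the 10 members 8 or 9 were detected under every threshold tried and without either replicate, and BCL2 was the gene lost at a TPM of at least 5. Of the 21 family genes 12 to 19 were detected. The number of neighbouring pairs apart was 3 to 5.

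For the listed members, and so without BAX, the ratio of pro-survival to pro-apoptotic TPM was 1.57 in estimated counts. It was 1.77 without the 4 members whose counts were not whole, and both values lie above 1. It was 0.786 to 0.838 without either replicate, and 0.797 to 0.813 in posterior mean TPM, FPKM or with 1 length per gene.

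BCL2L2 differed between the libraries under the other scalings, filters and posterior counts, with an adjusted p of 0.00216 to 0.0151 (exact binomial test). No member differed with pairs summed, an added setting, where 3 of 9 had an unadjusted p under 0.05 in the exact binomial test, against 13.2% of all genes tested. With whole counts only, which leaves BCL2L2 out, 0 of 5 members differed and 2 had an unadjusted p under 0.05, against 9.63% of all genes tested. The genes called in the whole table numbered 696 in the main setting, 448 with posterior counts, 456 with no filter and 71 with whole counts only.

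The mean TPM of 4 members moved by more than the SD between replicates in posterior mean TPM (MCL1, BCL2L11, BCL2 and BCL2A1). That of MCL1 alone did so in the pooled table or with 1 length per gene. The SD was 0.0495 TPM for MCL1 and 0 for BCL2A1, so small shifts passed this rule. MCL1 had 90.7 TPM in the main setting, 90.9 in the pooled table and 90.8 with 1 length per gene. Its posterior mean TPM was 84.2. The cause was not tested.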
